A study of Mus musculus with 12 samples.

Results

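Kidneys store and release fatty acids through a small set of enzymes and droplet proteins, and 43 genes of this set were followed here among the 54532 genes listed in each of 2 expression tables. The members were taken by gene name: 20 of fatty acid synthesis, 12 of triglyceride assembly and the lipid droplet coat, 6 of lipolysis, and 5 of fatty acid uptake and binding. All 43 names were found once in each table. The first table held 3 β-catenin-/- kidneys and 3 wild-type (WT) kidneys, all after unilateral ureteral obstruction (UUO), in which the left ureter is tied off for good. The second table held 3 kidneys labelled CD44-/- and 3 WT kidneys, all after ischemia and reperfusion of a single kidney (UIRI), for which the left renal vessels are clamped and then freed. No uninjured kidney was part of either table, so each value describes an injured kidney.

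All 12 mice were of the C57BL/6 strain according to the labels, which give neither age nor time after surgery. The methods of the study describe male mice, and the Y-linked gene Ddx3y was read at 9.01 to 16.6 FPKM in all 12 libraries. β-catenin was deleted by Cre under the promoter of Ksp-cadherin (Cadherin-16). The discussion of the study places this Cre mostly in collecting duct, loop of Henle and distal tubule and to some extent in proximal tubule. Its results report, from staining, loss of β-catenin in distal and connecting tubules and in most proximal tubules. The WT mice of the UUO table did not carry this Cre by the account of the study, so the transgene and the deletion cannot be told apart. For the UIRI model the methods describe removal of the right kidney on the day before sacrifice, and they do not describe the CD44-/- mice. Expression was measured by RNA sequencing of whole kidney and is given in FPKM. Here these are fragments scaled by gene length and by a size factor, which sets each library against the others of its table. In such bulk tissue, fewer cells of a type and less RNA per cell cannot be told apart.

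Fatty acids are built in the cytosol from acetyl-CoA, then elongated and desaturated. They are esterified to glycerol as triglyceride, and the triglyceride is packed in droplets coated by perilipins. Lipases release the fatty acids again for oxidation, the main fuel of the proximal tubule, which also takes fatty acids up from blood and filtrate. In the injured kidney, lipid droplets in tubular cells are a well-known feature.

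The targeted genes were read first. Ctnnb1, which encodes β-catenin, was at 84.7, 71.4 and 71.7 FPKM in β-catenin-/- kidneys, against 91.2, 86.7 and 98.5 FPKM in WT UUO kidneys. The groups did not overlap, and the difference did not pass the test (log2 fold change −0.28, SE 0.13, adjusted p = 0.189, limma). Cd44 was at 19.0, 11.97 and 13.9 FPKM in kidneys labelled CD44-/-, against 19.9, 16.3 and 17.8 FPKM in WT UIRI kidneys. These groups overlapped, and replicate 1 of the knockout lay within the WT range (log2 fold change −0.27, SE 0.17, adjusted p = 0.339, limma). The value of a gene sums all its exons, and the deleted part of Cd44 is not given in the sources used here, so the label could not be checked from it. Between 15940405 and 20737443 reads were assigned to genes per library.

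Marker genes of some cell types moved with both comparisons, and those of others did not. Of 10 proximal tubule markers, 7 were called higher in β-catenin-/- and 5 in kidneys labelled CD44-/-, and none was called lower (0 in both). Without Kap, which alone made up most of the sum, the other 9 markers summed to 971 to 1891 FPKM in β-catenin-/- and 426 to 450 FPKM in WT UUO kidneys. In the UIRI table they summed to 727 to 1652 FPKM in kidneys labelled CD44-/- and 443 to 525 FPKM in WT. Of 8 macrophage markers, 6 were called lower in β-catenin-/- and 4 in kidneys labelled CD44-/-, with sums of 561 to 642 against 1043 to 1266 FPKM in WT UUO, and of 743 to 1307 against 1926 to 2003 FPKM in WT UIRI. Adipocyte markers were close to 0 except in β-catenin-/- replicate 1, where the 6 markers summed to 16.5 FPKM, against at most 0.73 FPKM in the other 11 libraries. Cfd, an adipocyte-secreted protease, was at 14.6 FPKM and Adipoq at 1.30 FPKM in that library, and both were at 0 in all 3 WT UUO kidneys. The same library had the highest sum of the 9 proximal tubule markers (1891 FPKM). Of the members, Cidec and Plin1 were highest there among the β-catenin-/- kidneys, and Plin4, Fabp4 and Cidea were not. What fat tissue adds to that library was not tested. Of 5 fibroblast markers, 3 were called lower in β-catenin-/- and 1 in kidneys labelled CD44-/-, and all 5 had negative log2 fold changes in both tables. All 6 endothelial markers were negative after UUO (1 called) and 5 of 6 after UIRI (0 called). All 4 thick ascending limb markers were positive after UUO (1 called) and negative after UIRI (0 called). Of 6 distal and collecting duct markers, 3 were positive and 3 negative after UUO (1 called). After UIRI 5 of these were positive and 1 negative (0 called). The 3 podocyte markers were negative in both tables (0 called). The part of these cells in the results that follow was not tested.

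**Figure D1:**
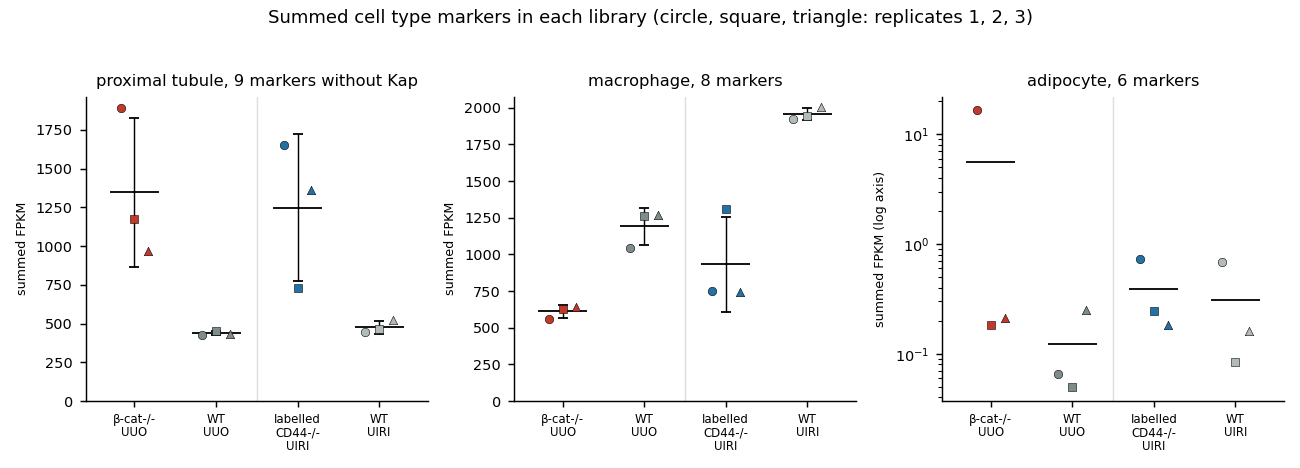
Summed FPKM of cell type markers in each library for the 4 groups, with circle, square and triangle for replicates 1, 2 and 3 and a bar for the mean (± SD on the linear axes). The 9 proximal tubule markers reached 971 to 1891 FPKM in β-catenin-/- kidneys against 426 to 450 FPKM in WT UUO kidneys, and the 6 adipocyte markers (log axis) reached 16.5 FPKM in β-catenin-/- replicate 1.

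Each knockout was compared with the WT kidneys of its own table with limma on log2(FPKM + 1), two-sided, with Benjamini-Hochberg adjustment over all genes tested. A gene was called at an adjusted p under 0.05. A gene entered when its 6 libraries averaged 0.5 FPKM or more, which 40 of 43 members reached after UUO and 37 after UIRI. In β-catenin-/- kidneys 8 members were called higher, 0 lower and 32 not called. Of all 16166 genes tested there, 6.21% were called higher and 4.36% lower. At an unadjusted p under 0.05, 23 members were higher and 0 lower, where 17% of all genes tested were higher and 12.9% lower. In kidneys labelled CD44-/-, 7 members were called higher, 0 lower and 30 not called, and of all 16113 genes tested 4.02% were called higher and 2.19% lower. At an unadjusted p under 0.05 the members numbered 16 higher and 1 lower, where 15.8% of all genes were higher and 11.2% lower. The members' median log2 fold change was 0.51 after UUO and 0.33 after UIRI, beside 0.01 and 0.00 over all genes tested.

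The scaling between libraries moved these values. FPKM rescaled to TPM gives each library the same total, which replaces the size factor already in the values. With TPM the median of all genes tested was −0.19 after UUO and −0.12 after UIRI, and that of the members was 0.30 and 0.20. The members called higher were then 6 after UUO and 3 after UIRI, and 0 were called lower. With no filter on low values, the calls of Acss2, Lpin1 and Plin5 remained after UUO and none after UIRI (0 of 7), so Elovl2, Scd1, Plin4, Pnpla2 and Fabp3 lost theirs. After UIRI, Acss2 and Dgat2 kept their calls without a trend and 0 members did with a replicate block. Single libraries mattered as well. After UUO, between 3 and 17 members were called higher when a library was left out, 3 without β-catenin-/- replicate 2 or WT replicate 2, 5 without β-catenin-/- replicate 1 and 17 without β-catenin-/- replicate 3. After UIRI, 0 members were called when any single library other than replicate 2 of the kidneys labelled CD44-/- was left out. Without that replicate, 12 were called higher and 1 lower. In this library the 9 proximal tubule markers summed to 727 FPKM, the lowest of its group, and the macrophage markers to 1307 FPKM, the highest of its group.

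**Figure D2:**
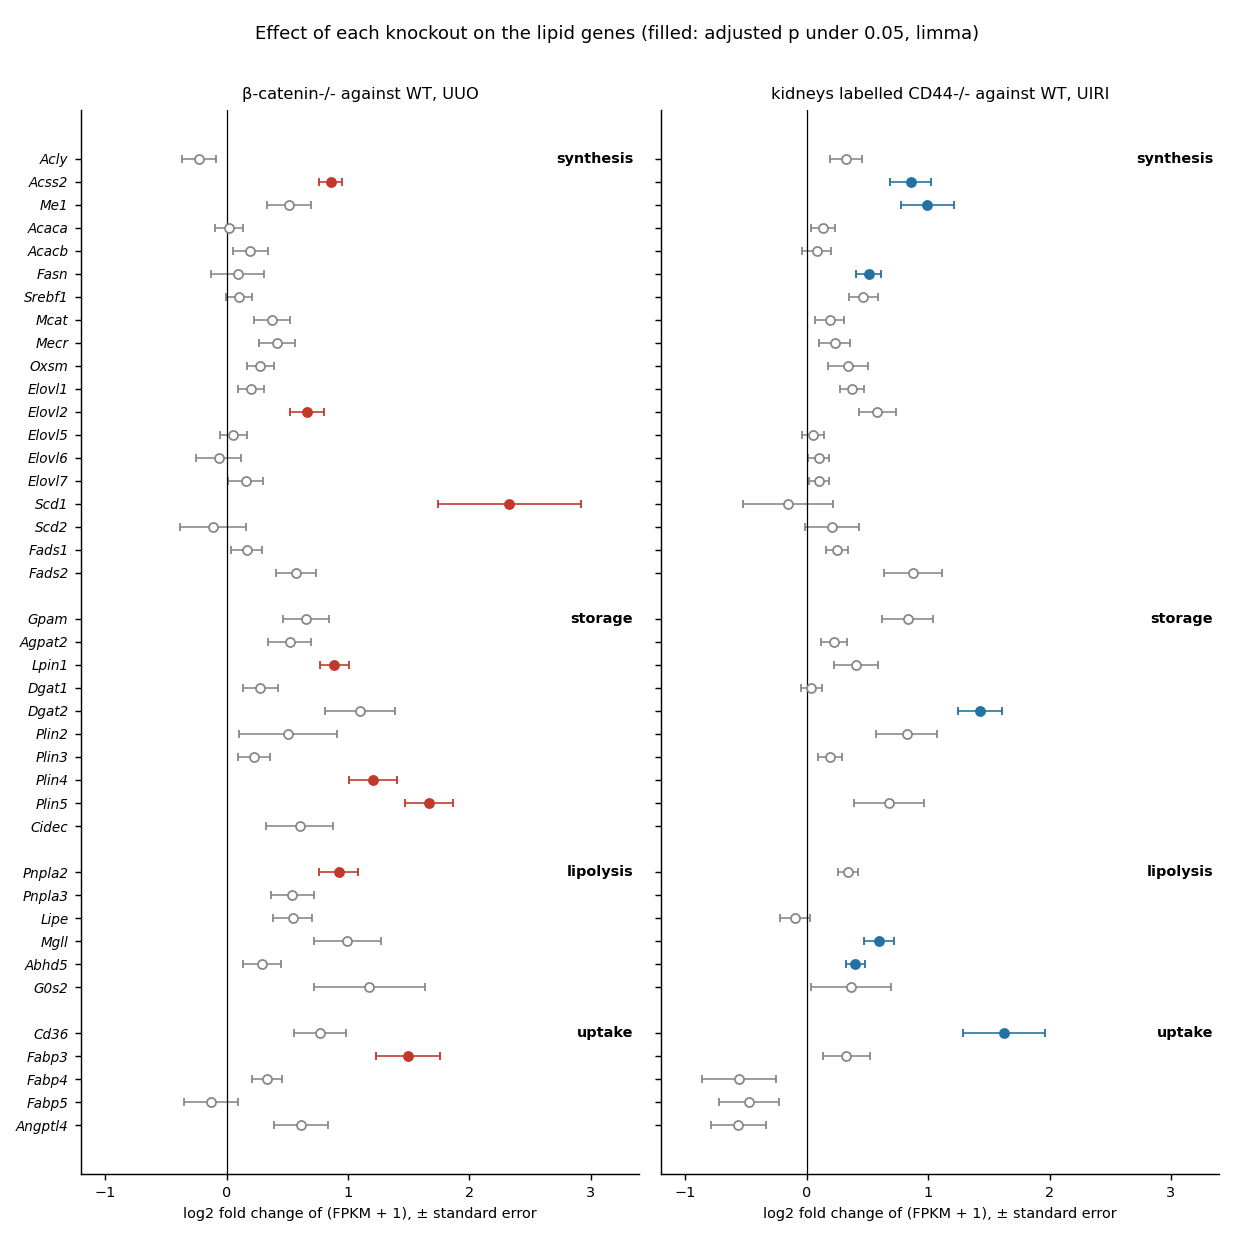
Log2 fold change of (FPKM + 1) with its standard error for each member tested, for β-catenin-/- against WT after UUO (left) and kidneys labelled CD44-/- against WT after UIRI (right), ordered by class. Filled points had an adjusted p under 0.05 in limma: 8 on the left, led by Scd1 at 2.33, and 7 on the right, led by Cd36 at 1.63.

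The 250 bases before the start of transcription were read for known motifs. RefSeq windows on GRCm38.p6 were matched for 32 of the 43 members, 44 windows in all. Acss2 is shown as the gene called in both tables, Plin4 and Plin5 as neighbours called together after UUO, and Cd36 and Plin2 for a DR1, the arrangement of 2 AGGTCA copies 1 base apart that PPAR receptors bind. In the first 3 windows capitals mark CCAAT or its reverse ATTGG, the NF-Y motif. In the last 2 they mark the DR1, allowing 2 mismatches in all.
Acss2, chr2:155517793-155518042, plus strand: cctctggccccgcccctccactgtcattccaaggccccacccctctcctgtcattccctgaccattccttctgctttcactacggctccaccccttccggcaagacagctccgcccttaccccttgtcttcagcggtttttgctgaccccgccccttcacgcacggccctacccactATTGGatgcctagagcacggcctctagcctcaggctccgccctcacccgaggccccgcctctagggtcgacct
Plin4, chr17:56109783-56110032, minus strand: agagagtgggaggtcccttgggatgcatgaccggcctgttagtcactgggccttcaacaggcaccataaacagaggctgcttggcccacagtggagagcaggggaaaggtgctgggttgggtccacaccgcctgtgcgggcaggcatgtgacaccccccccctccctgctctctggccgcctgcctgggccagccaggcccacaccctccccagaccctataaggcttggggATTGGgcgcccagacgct
Plin5, chr17:56117549-56117798, minus strand: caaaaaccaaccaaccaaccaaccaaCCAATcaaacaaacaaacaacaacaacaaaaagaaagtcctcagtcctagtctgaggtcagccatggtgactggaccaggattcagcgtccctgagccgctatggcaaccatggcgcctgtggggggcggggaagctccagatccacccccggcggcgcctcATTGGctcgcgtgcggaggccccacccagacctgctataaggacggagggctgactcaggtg
Cd36, chr5:17835897-17836146, minus strand: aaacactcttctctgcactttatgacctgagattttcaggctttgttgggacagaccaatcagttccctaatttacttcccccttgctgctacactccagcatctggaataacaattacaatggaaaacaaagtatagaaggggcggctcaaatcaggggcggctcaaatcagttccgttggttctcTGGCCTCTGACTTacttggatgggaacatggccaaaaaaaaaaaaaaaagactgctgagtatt
Plin2, chr4:86670060-86670309, minus strand: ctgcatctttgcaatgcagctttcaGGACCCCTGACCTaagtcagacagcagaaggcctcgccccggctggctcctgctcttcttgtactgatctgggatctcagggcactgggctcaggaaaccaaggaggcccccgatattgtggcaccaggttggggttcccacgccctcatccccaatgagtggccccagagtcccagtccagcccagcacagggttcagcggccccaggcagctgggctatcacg

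A DR1 with at most 2 mismatches was found on either strand in windows of 4 members, Oxsm, Elovl1, Plin2 and Cd36 (4 of 44 windows), and in 3.24% of all 32851 windows. It began 63 bases before the RefSeq start in Cd36 and 225 bases before that in Plin2. The Cd36 window lies inside the measured gene (17781690 to 17888801, minus strand), so its start is not the outermost one, and the FPKM does not separate starts. CCAAT on either strand was in a window of 15 members (16 of 44 windows) and in 33.9% of all windows. A member may have several windows, so the count of windows is the one to set beside that share. In Acss2 CCAAT lay 73 bases before the start, in Plin4 18 bases, and in Plin5 62 and 224 bases. AGGTCA alone, which a DR1 may hold, was in a window of 10 members (11 of 44 windows) and 14.0% of all windows. CACGTG (E-box) was in a window of 3 members, Elovl5, Lipe and Mgll (3 of 44 windows), and 6.02% of all. TCACNCCAC, a sterol response element, was in a window of 0 members and in 1.05% of all. A match is a string of letters and was not tested as a site.

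In the synthesis class, 3 of the 19 members tested were called higher in β-catenin-/- kidneys after UUO: Acss2, Elovl2 and Scd1. Acss2, on chromosome 2 of GRCm38 from 155517948 to 155585724, makes acetyl-CoA from acetate. It was at 14.7, 15.5 and 14.1 FPKM in β-catenin-/- kidneys, against 8.07, 7.52 and 7.51 FPKM in WT UUO kidneys. Every knockout value lay well above every WT value, and the spread within each group was small. The log2 fold change was 0.86 (SE 0.10, adjusted p = 0.0086, limma), and the call held with each of the 6 libraries left out. Of its exon bases 395 are shared with Gss on the other strand, a gene of up to 67.6 FPKM, and the kit named in the labels does not mark strand.

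Scd1 (chromosome 19, 44394451 to 44407709), the stearoyl-CoA desaturase that makes monounsaturated fatty acids, showed the widest gap of the class. It was at 46.6, 39.5 and 40.9 FPKM in β-catenin-/- kidneys, against 16.9, 2.02 and 10.7 FPKM in WT UUO kidneys. The knockout values were close together and the WT values spread more than 8-fold, without overlap between the groups. The log2 fold change was 2.33 (SE 0.59, adjusted p = 0.0485, limma). The call was lost without any of the 3 knockout replicates or WT replicate 3 (adjusted p 0.0721 to 0.124), with FPKM rescaled to TPM (0.0655) and with a pseudocount of 0.1 or 0.01. Scd2, its paralog 87.6 kb away, was at 32.9, 16.7 and 25.3 FPKM in β-catenin-/- against 29.6, 31.4 and 19.4 FPKM in WT UUO kidneys, and these groups overlapped. How reads matching both paralogs were counted is not given in the sources used here.

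Elovl2 (chromosome 13, 41182381 to 41220405), which elongates polyunsaturated fatty acids, was at 15.3, 11.6 and 11.7 FPKM in β-catenin-/- kidneys, against 7.95, 6.81 and 8.38 FPKM in WT UUO kidneys. The groups did not overlap (log2 fold change 0.66, SE 0.14, adjusted p = 0.030, limma). The call was lost with any single library left out except β-catenin-/- replicate 3 (adjusted p 0.0545 to 0.105), and with TPM (0.116). The other elongases tested, Elovl1, Elovl5, Elovl6 and Elovl7, had log2 fold changes of −0.07 to 0.20 and were not called. The share of Elovl2 in the summed FPKM of the 6 elongases was 12.7%, 9.28% and 10.02% in β-catenin-/- kidneys, against 7.91%, 6.41% and 7.61% in WT UUO kidneys.

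The core steps from citrate to palmitate were not called after UUO. Acly, which splits citrate into acetyl-CoA, was at 35.1, 27.9 and 25.0 FPKM in β-catenin-/- against 34.2, 33.4 and 35.2 FPKM in WT UUO kidneys (log2 fold change −0.23, SE 0.14, adjusted p = 0.314, limma). Acaca and Acacb, the acetyl-CoA carboxylases that make malonyl-CoA, were read at low levels. Acaca was at 1.67, 1.51 and 1.78 FPKM in β-catenin-/- and 1.60, 1.59 and 1.67 FPKM in WT UUO kidneys, and Acacb at 1.85, 1.38 and 1.45 against 1.39, 0.953 and 1.37 FPKM.

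Fasn, the fatty acid synthase, was at 13.4, 6.72 and 8.13 FPKM in β-catenin-/- kidneys, against 8.68, 8.19 and 8.45 FPKM in WT UUO kidneys. The highest value was that of β-catenin-/- replicate 1, the library with adipocyte markers, which was the highest of its group for 22 of the 40 members tested. The other knockout values lay below all 3 WT values. The log2 fold change was 0.09 (SE 0.22, adjusted p = 0.815, limma), and −0.17 without that library. Srebf1, the transcription factor that drives this pathway in liver, was at 14.9, 13.0 and 12.5 FPKM in β-catenin-/- and 12.4, 13.0 and 12.01 FPKM in WT UUO kidneys (log2 fold change 0.10, adjusted p = 0.567, limma).

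Other synthesis members lay higher in β-catenin-/- kidneys without passing the test. Fads2, the first desaturase of polyunsaturated fatty acids, was at 55.1, 43.4 and 36.5 FPKM in β-catenin-/- against 30.2, 26.5 and 32.2 FPKM in WT UUO kidneys (log2 fold change 0.57, SE 0.17, adjusted p = 0.0714, limma). Me1, the malic enzyme that supplies NADPH, was at 90.7, 83.4 and 59.5 FPKM against 47.2, 58.0 and 55.9 FPKM (adjusted p = 0.113, limma). Neither gene overlapped between groups. Mcat, Mecr and Oxsm, which build fatty acids inside mitochondria, had log2 fold changes of 0.28 to 0.41 with adjusted p of 0.118 to 0.151 (limma). Mcat and Mecr were called without β-catenin-/- replicate 3, and 53 exon bases of Mcat are shared with Tspo on the other strand, a gene of up to 284 FPKM. Fads1 was not called (log2 fold change 0.16).

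In the storage class, 3 of the 10 members tested were called higher in β-catenin-/- kidneys: Lpin1, Plin4 and Plin5. All 10 had a positive log2 fold change, but Cidec reached the filter through its knockout mean alone (0.931 FPKM in β-catenin-/- and 0.225 FPKM in WT UUO kidneys), which favours that sign. Plin5 (chromosome 17, 56111601 to 56117596), a droplet protein of oxidative tissues that ties droplets to mitochondria, was at 8.99, 9.005 and 5.53 FPKM in β-catenin-/- kidneys, against 1.63, 1.43 and 2.17 FPKM in WT UUO kidneys. The lowest knockout value was more than 2 times the highest WT value. The log2 fold change was 1.67 (SE 0.20, adjusted p = 0.00908, limma), and the call held with each library left out and with TPM.

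Plin4 (chromosome 17, 56100591 to 56109803), a perilipin abundant in fat and muscle, lies 1.80 kb from Plin5 on the same strand. It was at 1.94, 2.28 and 3.21 FPKM in β-catenin-/- kidneys, against 0.696, 0.222 and 0.601 FPKM in WT UUO kidneys, with no overlap. β-catenin-/- replicate 3 had the highest Plin4 and the lowest Plin5 of its group. The log2 fold change of Plin4 was 1.21 on the log2(FPKM + 1) scale (SE 0.20, adjusted p = 0.0159, limma), which understates so low a gene, since voom on recovered reads gave 2.42. The call was lost when β-catenin-/- replicate 2 (0.0501) or WT replicate 2 (0.0617) was left out.

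Lpin1 (chromosome 12, 16535669 to 16610966), a phosphatidate phosphatase that makes diacylglycerol, was at 7.25, 6.71 and 8.12 FPKM in β-catenin-/- kidneys, against 4.04, 3.15 and 3.39 FPKM in WT UUO kidneys. The groups stood clear of each other (log2 fold change 0.89, SE 0.12, adjusted p = 0.0123, limma). The adjusted p was 0.0545 without WT replicate 2 and under 0.05 with each of the other libraries left out.

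Dgat2, an acyltransferase of the last step of triglyceride synthesis, was at 34.6, 37.0 and 24.0 FPKM in β-catenin-/- kidneys, against 12.5, 10.03 and 21.95 FPKM in WT UUO kidneys. No value overlapped, and the test was just missed (log2 fold change 1.102, SE 0.29, adjusted p = 0.0536, limma, 0.0268 with voom on recovered reads, 0.0681 with TPM, and 0.0249 to 0.153 with a library left out). Gpam, the first acyltransferase of the pathway, was at 15.5, 14.1 and 15.2 FPKM against 11.1, 6.45 and 10.52 FPKM (adjusted p = 0.0705, limma). Agpat2, the second acyltransferase, reached 0.52 on the log2 scale (adjusted p = 0.107, limma), and Dgat1, the other enzyme of the last step, 0.28 with overlapping groups.

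Plin2, the perilipin found on droplets of most cells, was by its mean the most abundant member in β-catenin-/- and in WT UUO kidneys alike. It was at 101, 131 and 47.9 FPKM in β-catenin-/- kidneys, against 43.9, 54.9 and 90.6 FPKM in WT UUO kidneys. β-catenin-/- replicate 3 and WT replicate 3 crossed over, and the groups overlapped (log2 fold change 0.51, SE 0.40, adjusted p = 0.439, limma). Plin3, the perilipin shared with the cytosol, was at 19.2 to 25.2 FPKM in β-catenin-/- and 17.1 to 20.0 FPKM in WT UUO kidneys (log2 fold change 0.22). Cidec, which fuses droplets, was at 1.75, 0.373 and 0.667 FPKM in β-catenin-/- and 0.361, 0.0288 and 0.285 FPKM in WT UUO kidneys. Its highest value was in the library with adipocyte markers, and its log2 fold change was 0.60 (adjusted p = 0.196, limma), or 0.31 without that library.

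Of the 6 lipolysis members, 1 was called higher in β-catenin-/- kidneys and 6 had a positive log2 fold change. For Pnpla3 that sign is favoured by the filter, which it reached through its knockout mean alone (0.912 FPKM in β-catenin-/- and 0.311 FPKM in WT UUO kidneys). Pnpla2 (chromosome 7, 141455198 to 141460743) encodes ATGL, the lipase of the first step. It was at 65.8, 77.8 and 54.9 FPKM in β-catenin-/- kidneys, against 31.4, 32.6 and 38.6 FPKM in WT UUO kidneys. The groups were well apart (log2 fold change 0.92, SE 0.16, adjusted p = 0.0182, limma). The adjusted p was 0.0516 to 0.0748 without β-catenin-/- replicate 1 or 2 or WT replicate 1 or 2, and 0.0155 with TPM.

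The next lipases of the cascade lay higher without passing. Lipe, the hormone-sensitive lipase, was at 7.03, 6.77 and 4.55 FPKM in β-catenin-/- against 3.68, 3.77 and 4.02 FPKM in WT UUO kidneys (adjusted p = 0.0699, limma). Mgll, the monoglyceride lipase, was at 9.76, 6.91 and 3.84 FPKM against 3.25, 2.45 and 2.56 FPKM (log2 fold change 0.99, SE 0.28, adjusted p = 0.0615, limma). Both were called without β-catenin-/- replicate 3, the lowest knockout library for all 6 members of this class, with adjusted p of 0.0141 for Lipe and 0.0125 for Mgll. Mgll was highest in the library with adipocyte markers, and its log2 fold change was 0.73 without it.

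G0s2, an inhibitor of ATGL, was at 42.2, 100.2 and 24.6 FPKM in β-catenin-/- kidneys, against 17.0, 19.3 and 25.6 FPKM in WT UUO kidneys. The knockout values spread 4-fold and the lowest fell inside the WT range (log2 fold change 1.17, SE 0.46, adjusted p = 0.138, limma). Abhd5, the activator of ATGL, overlapped between groups (log2 fold change 0.29, adjusted p = 0.265, limma). Pnpla3, a lipid remodelling enzyme related to ATGL, was at 0.691 to 1.22 FPKM in β-catenin-/- and 0.207 to 0.499 FPKM in WT UUO kidneys, from 71 and 27 reads in all (adjusted p = 0.0916, limma).

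Fabp3 was the member of the uptake class called higher in β-catenin-/- kidneys. Fabp3 (chromosome 4, 130308595 to 130315463), the fatty acid binding protein of heart and muscle, was at 33.4, 46.6 and 35.1 FPKM in β-catenin-/- kidneys, against 19.8, 9.47 and 11.1 FPKM in WT UUO kidneys. The groups did not overlap (log2 fold change 1.496, SE 0.27, adjusted p = 0.0193, limma). The adjusted p was 0.0612 without β-catenin-/- replicate 2 and 0.0724 without WT replicate 2, and 81 exon bases are shared with Zcchc17 on the other strand. Cd36, the fatty acid translocase, was at 65.7, 61.7 and 47.2 FPKM against 28.5, 45.3 and 28.7 FPKM (adjusted p = 0.0626, limma). Angptl4, a secreted inhibitor of lipoprotein lipase, was at 71.6, 106 and 74.9 FPKM against 58.0, 41.1 and 65.3 FPKM (adjusted p = 0.117, limma). Neither gene overlapped between groups. Fabp4 and Fabp5, the binding proteins of fat cells, macrophages and epithelia, had log2 fold changes of 0.33 and −0.13 and were not called.

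**Figure D3:**
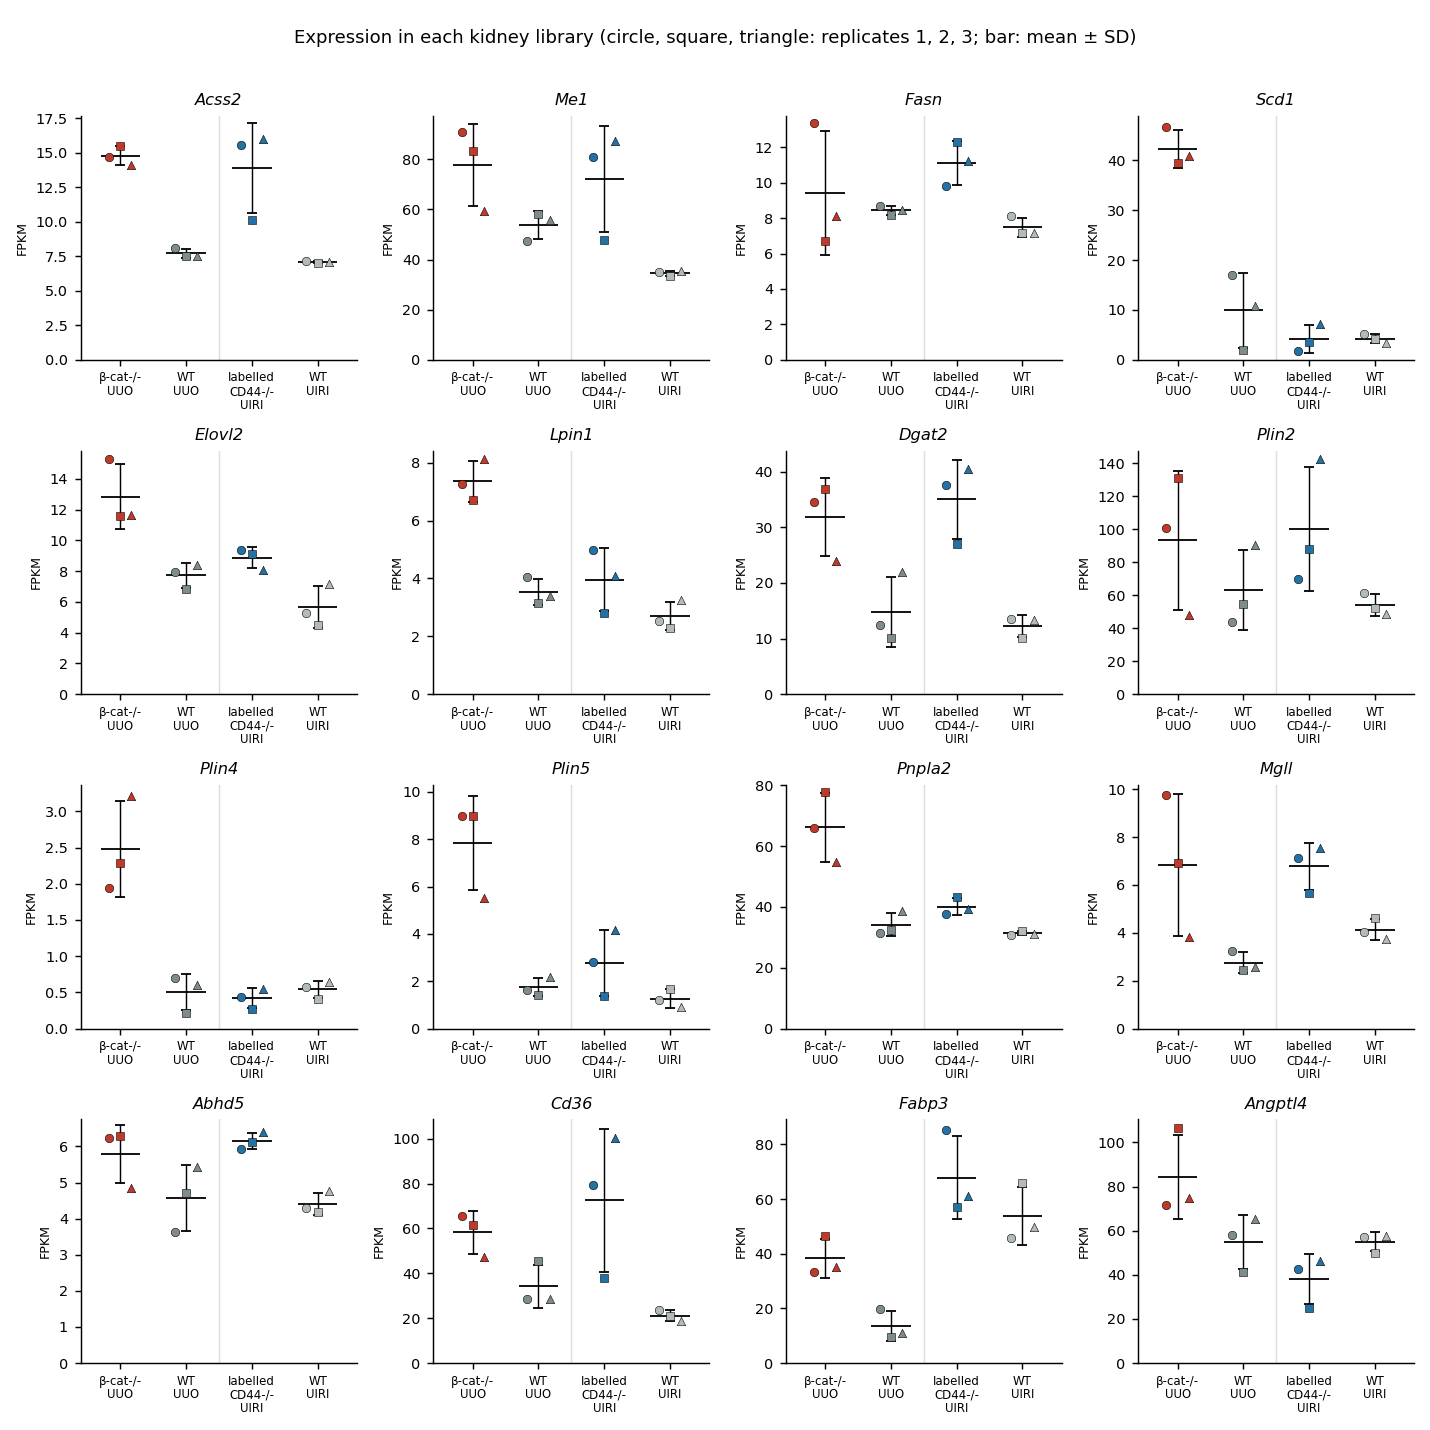
FPKM of 16 members in each library of the 4 groups, with circle, square and triangle for replicates 1, 2 and 3 and a bar for the mean ± SD. Scd1 stood at 39.5 to 46.6 FPKM in β-catenin-/- kidneys and at 7.21 FPKM or less in every UIRI library, and Cd36 at 37.8 to 100.4 FPKM in kidneys labelled CD44-/- against 18.6 to 23.7 FPKM in WT UIRI kidneys.

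In kidneys labelled CD44-/- after UIRI, 3 of the 19 synthesis members tested were called higher: Acss2, Me1 and Fasn. Acss2 was at 15.5, 10.1 and 16.0 FPKM in kidneys labelled CD44-/-, against 7.16, 7.03 and 7.06 FPKM in WT UIRI kidneys. Replicate 2 was the lowest of its group and still above all WT values (log2 fold change 0.85, SE 0.17, adjusted p = 0.0382, limma). Acss2 was the member called in both tables, 1 of 8 calls after UUO (12.5%) and 1 of 7 after UIRI (14.3%).

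Me1 (chromosome 9, 86581371 to 86695953) was at 81.0, 47.8 and 87.2 FPKM in kidneys labelled CD44-/-, against 34.8, 33.3 and 35.4 FPKM in WT UIRI kidneys (log2 fold change 0.99, SE 0.22, adjusted p = 0.0494, limma). Here too replicate 2 was lowest and the groups did not overlap. Fasn (chromosome 11, 120805846 to 120824547) ran differently, at 9.82, 12.3 and 11.2 FPKM against 8.11, 7.18 and 7.16 FPKM, with replicate 2 highest (log2 fold change 0.51, SE 0.10, adjusted p = 0.0413, limma). Me1 and Fasn were not called with TPM (0.0565 and 0.131).

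Srebf1, like Fasn, was highest in replicate 2, at 14.4, 18.9 and 14.4 FPKM in kidneys labelled CD44-/- against 11.3, 10.6 and 11.5 FPKM in WT UIRI kidneys (adjusted p = 0.0661, limma). Acly was at 35.0, 41.7 and 35.0 FPKM against 34.5, 25.8 and 28.8 FPKM (log2 fold change 0.32, adjusted p = 0.174, limma). Of the 7 members of de novo synthesis, 6 had knockout values all above WT and Acacb overlapped, where 19.1% of all genes tested lay all above. Acly and Acaca were among the 6 by narrow gaps, Acaca at 1.48 to 1.74 FPKM against 1.34 to 1.44 FPKM. Elovl2 was at 9.39, 9.08 and 8.08 FPKM against 5.29, 4.52 and 7.17 FPKM (adjusted p = 0.0680, limma). Fads2 was at 37.1, 29.8 and 43.02 FPKM against 24.9, 13.4 and 21.4 FPKM (adjusted p = 0.0731, limma), again without overlap and without a call.

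Scd1 was low in the UIRI table, at 1.76, 3.55 and 7.21 FPKM in kidneys labelled CD44-/- and 5.07, 4.24 and 3.44 FPKM in WT UIRI kidneys. The groups overlapped (log2 fold change −0.15, SE 0.37, adjusted p = 0.827, limma). Scd2 was at 37.7, 54.5 and 28.2 FPKM against 32.4, 32.4 and 35.6 FPKM and overlapped as well. Elovl1 had knockout values of 49.4 to 58.9 FPKM above WT values of 40.5 to 44.4 FPKM (adjusted p = 0.0694, limma). The remaining synthesis members tested, Acaca, Acacb, Mcat, Mecr, Oxsm, Elovl5, Elovl6, Elovl7 and Fads1, had log2 fold changes of 0.05 to 0.34 and were not called.

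Of 8 storage members tested after UIRI, Dgat2 was called higher. Dgat2 (chromosome 7, 99153658 to 99182719) was at 37.6, 27.0 and 40.5 FPKM in kidneys labelled CD44-/-, against 13.4, 10.03 and 13.4 FPKM in WT UIRI kidneys. The lowest knockout value was 2 times the highest WT value (log2 fold change 1.43, SE 0.18, adjusted p = 0.0267, limma, and 0.0263 with TPM). Dgat1 differed little, at 19.4, 17.7 and 18.6 FPKM against 17.5, 19.9 and 16.9 FPKM (log2 fold change 0.04).

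Plin2 was at 69.8, 87.9 and 143 FPKM in kidneys labelled CD44-/-, against 61.2, 52.1 and 48.5 FPKM in WT UIRI kidneys. The groups did not overlap, and the knockout values spread 2-fold (log2 fold change 0.82, SE 0.25, adjusted p = 0.0962, limma). Gpam was at 9.13, 9.38 and 11.4 FPKM against 5.21, 3.55 and 7.20 FPKM (adjusted p = 0.0661, limma). Plin5 overlapped, at 2.80, 1.36 and 4.16 FPKM against 1.20, 1.69 and 0.920 FPKM, and passed without replicate 2 of the kidneys labelled CD44-/- (adjusted p = 0.0291, limma). Agpat2, Lpin1 and Plin3 were not called (log2 fold changes 0.22, 0.41 and 0.19). Plin4 was under the filter, at 0.273 to 0.544 FPKM in kidneys labelled CD44-/- and 0.414 to 0.639 FPKM in WT UIRI kidneys.

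Among 5 lipolysis members tested after UIRI, Mgll and Abhd5 were called higher. Mgll (chromosome 6, 88724412 to 88828360) was at 7.12, 5.67 and 7.55 FPKM in kidneys labelled CD44-/-, against 4.05, 4.60 and 3.74 FPKM in WT UIRI kidneys (log2 fold change 0.60, SE 0.12, adjusted p = 0.0427, limma). Abhd5 (chromosome 9, 122351608 to 122381524) was at 5.93, 6.12 and 6.39 FPKM against 4.29, 4.20 and 4.76 FPKM (log2 fold change 0.40, SE 0.08, adjusted p = 0.0423, limma). The step between the groups was small and the spread within each smaller still. With TPM neither passed (0.0586 for Mgll and 0.143 for Abhd5).

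Pnpla2 was at 37.7, 43.1 and 39.2 FPKM in kidneys labelled CD44-/- and 30.9, 32.2 and 31.1 FPKM in WT UIRI kidneys, without overlap and without a call (log2 fold change 0.34, SE 0.08, adjusted p = 0.0615, limma). Lipe overlapped, with a log2 fold change of −0.10. G0s2 overlapped too, at 41.0, 34.1 and 76.5 FPKM against 35.1, 50.3 and 27.9 FPKM. Pnpla3 was under the filter.

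Cd36 had the highest log2 fold change of the 37 members tested after UIRI. Cd36 (chromosome 5, 17781690 to 17888801) was at 79.2, 37.8 and 100.4 FPKM in kidneys labelled CD44-/-, against 23.7, 21.1 and 18.6 FPKM in WT UIRI kidneys. Replicate 2 was far below the other knockout kidneys and still above WT (log2 fold change 1.63, SE 0.34, adjusted p = 0.0435, limma). Its log2 fold change was 2.03 without that replicate, and the call was lost without a trend, without a filter and with a replicate block (adjusted p up to 0.141 over all alternatives). Angptl4 lay the other way, at 42.7, 25.0 and 46.4 FPKM against 57.3, 50.1 and 57.6 FPKM, the 1 member tested with knockout values all below WT (log2 fold change −0.57, SE 0.23, adjusted p = 0.167, limma). Fabp4 and Fabp5 overlapped, with log2 fold changes of −0.56 and −0.48, and Fabp5 was called lower without replicate 2 of the kidneys labelled CD44-/- (adjusted p = 0.0120, limma). Fabp3 was at 57.2 to 85.3 FPKM in kidneys labelled CD44-/- and 45.7 to 65.7 FPKM in WT UIRI kidneys, and overlapped.

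Set beside each other, the classes differed in how their members were spread. Lipolysis holds G0s2, an inhibitor of ATGL, and uptake holds Angptl4, an inhibitor of lipoprotein lipase. A class median therefore describes its genes and not the direction of the process. After UUO the median log2 fold change was 0.20 for synthesis, 0.63 for storage, 0.73 for lipolysis and 0.61 for uptake, beside 0.01 over all genes. With TPM these medians were −0.011, 0.64, 0.76 and 0.40, and that of all genes was −0.19. Without Cidec and Pnpla3, which passed the filter through the knockout group, the median was 0.65 for the other 9 storage members and 0.92 for the other 5 lipolysis members. Within synthesis, the median was 0.10 for the 7 genes of de novo synthesis, 0.37 for mitochondrial synthesis, 0.16 for elongases and 0.37 for desaturases, and with TPM it was −0.11, 0.19, −0.057 and 0.16 for the same sets. Knockout values lay all above WT for 8 of 19 synthesis members, 7 of 10 storage members, 4 of 6 lipolysis members and 4 of 5 uptake members, Cidec and Pnpla3 among them. That is 23 of 40 members, where 19.6% of all genes tested lay all above and 15.9% all below. The proximal tubule markers had a median log2 fold change of 1.31 in the same libraries.

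After UIRI the class medians were 0.25 for synthesis, 0.54 for storage, 0.37 for lipolysis and −0.48 for uptake, beside 0.00 over all genes. With TPM they were 0.12, 0.52, 0.24 and −0.68, beside −0.12. Without that rescaling, the lipolysis median was the value of G0s2 and the uptake median that of Fabp5. In uptake, Cd36 was at 1.63 and Fabp3 at 0.33, and Angptl4 was at −0.57 and Fabp4 at −0.56. The de novo genes had a median of 0.47 and the elongases 0.10, or 0.36 and −0.017 with TPM. Knockout values lay all above WT for 10 of 19 synthesis, 4 of 8 storage, 3 of 5 lipolysis and 1 of 5 uptake members, 18 of 37 in all and 1 below, where 19.1% of all genes tested lay all above and 14.5% all below. The proximal tubule markers had a median log2 fold change of 1.28 there. The differences between classes were not tested.

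Both knockouts were also set against each other, as the difference of their log2 fold changes over all 12 libraries in limma. Injury and gene cannot be told apart in this contrast. Of 39 members in this fit 0 were called, and of all 16193 genes 1 was called (0.00618%). At an unadjusted p under 0.05 there were 10 members, where 13.6% of all genes were under it. The lowest adjusted p was that of Plin4 (0.118), with a difference of 1.33 (SE 0.24) towards UUO. Plin4 was below the filter in the UIRI table and entered this fit through its mean over all 12 libraries. Scd1 differed by 2.48 (SE 0.78, adjusted p = 0.231, limma), Angptl4 by 1.18 (SE 0.34, adjusted p = 0.210, limma) and Fabp3 by 1.17 (SE 0.36, adjusted p = 0.228, limma). Acly differed by −0.55 (SE 0.19, adjusted p = 0.265, limma), on the side of UIRI. Acss2 had a difference of 0.00 (SE 0.19). Of 37 members tested in both tables, 29 had a positive log2 fold change in both, of which 20 were also positive in both with TPM and 9 were not. Of all genes tested, 51.1% were positive after UUO and 50.2% after UIRI. The share of all genes positive in both was not computed, so the 29 cannot be set against it. The other sign patterns included 7 members with opposite signs: Acly, Elovl6, Scd1, Scd2, Lipe, Fabp4 and Angptl4. The signs of Elovl6 and Scd2 in the UUO table, and of Scd1 and Scd2 in the UIRI table, changed with a library left out, and that of Elovl6 in the UIRI table changed with TPM. Knockout values all above WT were found after UUO and again after UIRI for 10 members: Acss2, Me1, Elovl1, Elovl2, Fads2, Gpam, Dgat2, Pnpla2, Mgll and Cd36. Of the 15489 genes tested in both tables, 9.3% lay all above in both.

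Ratios of FPKM within a library do not depend on scaling between libraries. Dgat2 to Dgat1 was 1.84, 2.30 and 1.55 in β-catenin-/- kidneys, against 1.05, 0.775 and 1.35 in WT UUO kidneys. It was 1.94, 1.52 and 2.17 in kidneys labelled CD44-/-, against 0.769, 0.504 and 0.793 in WT UIRI kidneys. In both tables Dgat2 exceeded Dgat1 in every knockout kidney, and the groups did not overlap.

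Scd1 to Scd2 was 1.42, 2.36 and 1.61 in β-catenin-/- kidneys, against 0.572, 0.0644 and 0.555 in WT UUO kidneys. After UIRI it was 0.256 or less in all 6 libraries. Plin5 to Plin2 was 0.0892, 0.0686 and 0.115 in β-catenin-/- against 0.0371, 0.0261 and 0.0240 in WT UUO kidneys. Plin5 made up 6.56%, 5.44% and 7.28% of the summed perilipins in β-catenin-/- kidneys and 1.92% to 2.46% in WT UUO kidneys, while Plin2 made up 63.2% to 79.4% in β-catenin-/- and 66.3% to 80.0% in WT UUO kidneys and overlapped. Acss2 to Acly was 0.419, 0.555 and 0.564 in β-catenin-/- against 0.236, 0.225 and 0.213 in WT UUO kidneys, and overlapped after UIRI. Plin5 to Plin2 overlapped after UIRI as well. G0s2 to Pnpla2 and Me1 to Fasn, also read as ratios, overlapped between groups in both tables. How often the ratios of other gene pairs separate was not computed. With 3 kidneys against 3, an exact permutation test of such a ratio cannot go below p = 0.1, the value it takes where groups do not overlap.

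**Figure D4:**
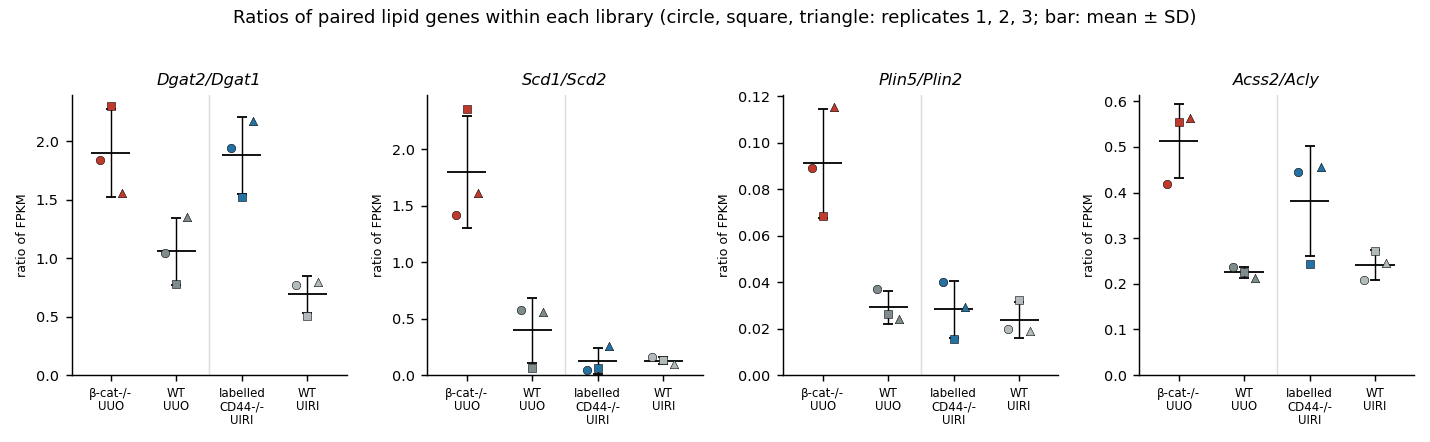
Ratio of the FPKM of 2 members within each library, for 4 pairs and 4 groups, with circle, square and triangle for replicates 1, 2 and 3 and a bar for the mean ± SD. The pairs G0s2 to Pnpla2 and Me1 to Fasn, which overlapped between groups in both tables, are not drawn. Dgat2 to Dgat1 was 1.52 to 2.30 in the 6 knockout kidneys against 0.504 to 1.35 in the 6 WT kidneys, and Scd1 to Scd2 exceeded 1 in the 3 β-catenin-/- kidneys and in none of the other 9.

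Some members are neighbours, and chromosome 19 holds 6 of the 43. Scd1 was called after UUO while Scd2 had a log2 fold change of −0.12. Fads2 and Fads1, 81.4 kb apart, had log2 fold changes of 0.57 and 0.16 after UUO and 0.87 and 0.25 after UIRI. Plin3 lies 160 kb beyond Plin5 and had 0.22 after UUO, against 1.67 for Plin5 and 1.21 for Plin4. The order of Plin5 and Plin4 turned with voom on recovered reads, at 2.15 for Plin5 and 2.42 for Plin4.

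The members under the filter in both tables were Elovl3, Plin1 and Cidea, genes known from skin or brown and white fat. Elovl3 was listed at 0 in 11 libraries and at 0.0406 FPKM in replicate 2 of the kidneys labelled CD44-/-. Plin1, the perilipin of fat cells, was at 0.164 FPKM or less and Cidea at 0.183 FPKM or less in every library. The highest Plin1 value of the UUO table was in β-catenin-/- replicate 1, the library with adipocyte markers. That of all libraries (0.164 FPKM) was in replicate 3 of the kidneys labelled CD44-/-, where the adipocyte markers summed to 0.18 FPKM. Plin4, Cidec and Pnpla3 entered the test after UUO and not after UIRI.

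A wider list of 71 genes of the same pathways was read beside the members. After UUO, 61 were tested, 18 were called higher and 2 lower in β-catenin-/- kidneys, where 6.21% of all genes tested were called higher and 4.36% lower. In synthesis they included Acss1, the mitochondrial counterpart of Acss2 (log2 fold change 0.72), Mlxipl, the carbohydrate response factor ChREBP (0.80), and Tecr, an enzyme of the elongation cycle (0.65). In storage they included Fitm2 (0.99), which acts where droplets bud from the endoplasmic reticulum, Agpat3 (0.93) and Hsd17b11 (0.62), a droplet protein. The 2 called lower, named after their values were seen, were Soat2, which makes cholesterol esters (−0.70), and Agpat4 (−0.49). Ces1d, a carboxylesterase that hydrolyses triglyceride, was at 74.7, 44.7 and 53.2 FPKM in β-catenin-/- kidneys, against 13.5, 13.9 and 7.83 FPKM in WT UUO kidneys (log2 fold change 2.21, SE 0.26, adjusted p = 0.00898, limma). In uptake Acsl1, an acyl-CoA synthetase (1.29), Slc27a2 (1.13) and Slc27a1 (0.80), both fatty acid transporters, and Fabp1 (1.91) were called higher.

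After UIRI, 62 of the 71 were tested, 7 were called higher and 0 lower in kidneys labelled CD44-/-, where 4.02% of all genes tested were called higher and 2.19% lower. Over all genes, the 648 calls higher became 0 to 4 when any library but replicate 2 of the kidneys labelled CD44-/- was left out, and 0 with a replicate block. Insig1, which holds SREBP in the endoplasmic reticulum, was at 17.2, 15.4 and 17.0 FPKM in kidneys labelled CD44-/-, against 6.66, 6.38 and 7.61 FPKM in WT UIRI kidneys (log2 fold change 1.16, SE 0.09, adjusted p = 0.0167, limma). Slc25a1, the mitochondrial citrate carrier (0.68), Mlxipl (0.59) and Fads3 (0.88) were the others named in synthesis, with Agpat3 (0.60) in storage and Lipa, the lysosomal acid lipase (0.67), in lipolysis. Slc25a1, Acat2, Mlxipl and Agpat3 were called in both tables. Over the tested genes of this wider list the log2 fold change had a median of 0.29 after UUO and 0.25 after UIRI.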

How the data were processed

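RNA of 12 mouse kidneys (3 per group) was sequenced with a kit that does not mark strand. Per the labels and the methods of the study, the authors aligned reads to GRCm38 with HISAT2 2.0.5, counted them with featureCounts 1.5.0-p3 and tested with DESeq2 1.20.0. The deposited values are FPKM, which the authors made from counts and gene length. FPKM times gene length gave whole reads (within 0.01) in 100% of values. WT columns were assigned by the knockout of the same table, for which the labels name them as controls.

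Groups were compared within each table with limma 3.58.1 in R 4.3.3 (trend) on log2(FPKM + 1), so fold changes of low genes are understated. The filter was 0.5 FPKM averaged over the 6 libraries. The procedure was also run on simulated reads with the depths of the UUO libraries and a single fixed spread for all genes. That run cannot show how calls behave where kidneys of a group differ as much as here. The 43 members and the other lists were chosen with earlier results of these data known. Values per library are given for members called in a table, members without overlap and at least 1.5-fold apart, and the main enzymes and coat proteins, and of the wider list up to 4 called genes per class by p. Promoter windows were RefSeq's. Alternatives were pseudocounts of 0.1 and 0.01, no filter or 1 FPKM, TPM, no trend, voom from limma on the whole reads, a replicate block and each library left out. Tables were made with Python 3.11.15, pandas 2.3.3 and Matplotlib 3.10.9.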

Additional observations from a re-analysis of the deposited data

How the results depend on the processing

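Counts of calls moved most. Members called higher after UUO (8) were 3 without a filter on low values and 13 with voom on recovered reads, and 3 to 17 with a library left out. After UIRI (7) they were 0 without a filter, 3 with TPM, 2 without a trend, 12 with voom and 0 to 12 with a library left out, and 0 to 1 were lower. All genes higher and lower after UUO (1004 and 705) were 280 and 193 without a filter, 578 and 1178 with TPM, and 116 to 1614 and 95 to 807 with a library left out. After UIRI (648 and 353) they were 43 and 20 without a filter, 220 and 473 with TPM, 1044 and 667 with voom, and 0 to 1413 and 1 to 761 with a library left out. The cause was not tested. In the difference between the 2 knockout effects 0 members were called under each alternative run.

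Same-numbered kidneys deviated together weakly (correlations of 0.04 to 0.20 after UUO and −0.14 to −0.03 after UIRI). With 3 kidneys per group such values cannot show whether the numbers pair kidneys, and the sample titles do not say. With the number as a replicate block, 9 members were called higher after UUO and 0 after UIRI, where 0 genes in all were then called higher and 0 lower.

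Class medians moved by more than the spread between replicates in few settings. After UUO storage was 0.88 with a pseudocount of 0.1, 0.89 with 0.01, 0.89 with voom and 0.51 to 0.77 with a library left out. Lipolysis was 1.07, 1.08 and 1.07 with the same 3 settings. Uptake was 0.40 with TPM and 0.43 to 0.69 with a library left out, and synthesis −0.011 with TPM. After UIRI, TPM gave 0.12 for synthesis, 0.24 for lipolysis and −0.68 for uptake, no filter gave 0.21 for storage, and uptake was −0.50 to −0.27 with a library left out.

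Signs changed in members not called in the comparison concerned, most of them near 0. Fasn changed sign after UUO and was called after UIRI, and Scd1 changed sign after UIRI and was called after UUO. With TPM the log2 fold changes after UUO were −0.16 for Acaca, −0.12 for Fasn, −0.11 for Srebf1, −0.011 for Elovl1, −0.16 for Elovl5, −0.057 for Elovl7 and −0.048 for Fads1, and after UIRI −0.014 for Acacb, −0.082 for Elovl5, −0.0165 for Elovl6, −0.029 for Elovl7 and −0.092 for Dgat1. With a library left out they ran after UUO from −0.018 to 0.056 for Acaca, −0.17 to 0.28 for Fasn, −0.0098 to 0.12 for Elovl5, −0.23 to 0.14 for Elovl6, −0.33 to 0.13 for Scd2 and −0.35 to 0.10 for Fabp5. After UIRI they ran from −0.0003 to 0.16 for Acacb, −0.018 to 0.11 for Elovl5, −0.56 to 0.23 for Scd1, −0.034 to 0.43 for Scd2 and −0.0063 to 0.10 for Dgat1. Chosen after seeing the data, leaving out Cidec and Pnpla3, which reached the filter in the knockout group alone, gave UUO medians of 0.65 for storage and 0.92 for lipolysis. With 3 kidneys per group, low members such as Plin4 and Cidec rest on few reads.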
